A study of Caenorhabditis elegans with 7 samples.

Results

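The genes described here are 10 members of the Wnt and β-catenin pathway of Caenorhabditis elegans, namely kin-19, gsk-3, bar-1, wrm-1, sys-1, hmp-2, pop-1, lit-1, mom-2 and mom-5. They were taken by name, with earlier results of these data known, so their ranks and unadjusted p-values are descriptive. Every probe set that the platform annotation gives to 1 of these genes alone was used. This gave 17 of the 22548 probe sets tested and 10 of the 17118 genes named. The genes bar-1, hmp-2, pop-1 and mom-2 had 1 probe set each, kin-19, gsk-3, wrm-1, sys-1 and mom-5 had 2 each, and lit-1 had 3.

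Wild-type N2 worms were grown for 3 days at 20 °C, from the egg to the young adult, on plates of Nematode Growth Medium (NGM), either alone, as the control diet, or with 13L, a cocoa peptide, added at 1 µg/mL. The total RNA of whole worms was hybridised to Affymetrix C. elegans Genome Arrays. The labels gave 4 NGM arrays (SL1, SL5, SL9 and SL69) and 3 arrays of 13L (SL4, SL8 and SL12). The methods name as many biological replicates for 13L as for NGM, without saying which cultures they came from. The labels hold no further array of 13L, and the p-values measure the spread between these 7 arrays.

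Wnt proteins are secreted signals that bind Frizzled receptors on neighbouring cells. Without a signal, a destruction complex that holds the kinases casein kinase 1α and glycogen synthase kinase 3 marks β-catenin for removal, and with a signal β-catenin persists and turns a TCF transcription factor from a repressor into an activator. The worm divides the work among several β-catenins: BAR-1 takes part in the classical pathway, WRM-1 and SYS-1 act in the asymmetric divisions in which the level of the TCF protein POP-1 is set unequally between daughter cells, and HMP-2 holds cells together at adherens junctions.

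The deposited values are log2 levels after RMA, in which an array median lay between 1.01 and 1.06 and 2 arrays correlated at 0.982 to 0.995. A level can be compared across arrays for 1 probe set but not between probe sets. The brightest of 5 yeast control probe sets had a mean of 0.74, and the mean of 41.3% of all probe sets was not above it. Of the 17 probe sets of the 10 genes, 15 had a higher mean; 172990_at of gsk-3 and 174282_at of sys-1 did not. RNA from whole worms cannot show whether a lower level comes from fewer cells of a type or from less RNA in each cell.

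No probe set of the 10 genes passed an adjusted p under 0.05 in limma, against 0% of all probe sets. The lowest adjusted p was 0.944, both for the 10 genes and for the whole array. On 2 of the 17 probe sets, 189878_at of kin-19 and 192368_s_at of mom-2, the level was higher in 13L at an unadjusted p under 0.05, where 2.54% of all probe sets lay, and on none was it lower, where 2.57% lay. The groups did not overlap on 1 of the 17, 189878_at of kin-19, higher in 13L, against 3.31% of all probe sets in that direction and 2.77% in the other. Of the 17 differences (13L minus NGM), 9 were positive and 8 negative, and their median was 0.02, beside 0.01 over all probe sets. Counted once per gene by the brightest probe set, 4 of the 10 differences were positive and the median was -0.10, beside 0.00 over all genes, and mom-2 was the only gene at an unadjusted p under 0.05, where 4.72% of all genes lay.

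**Figure D1:**
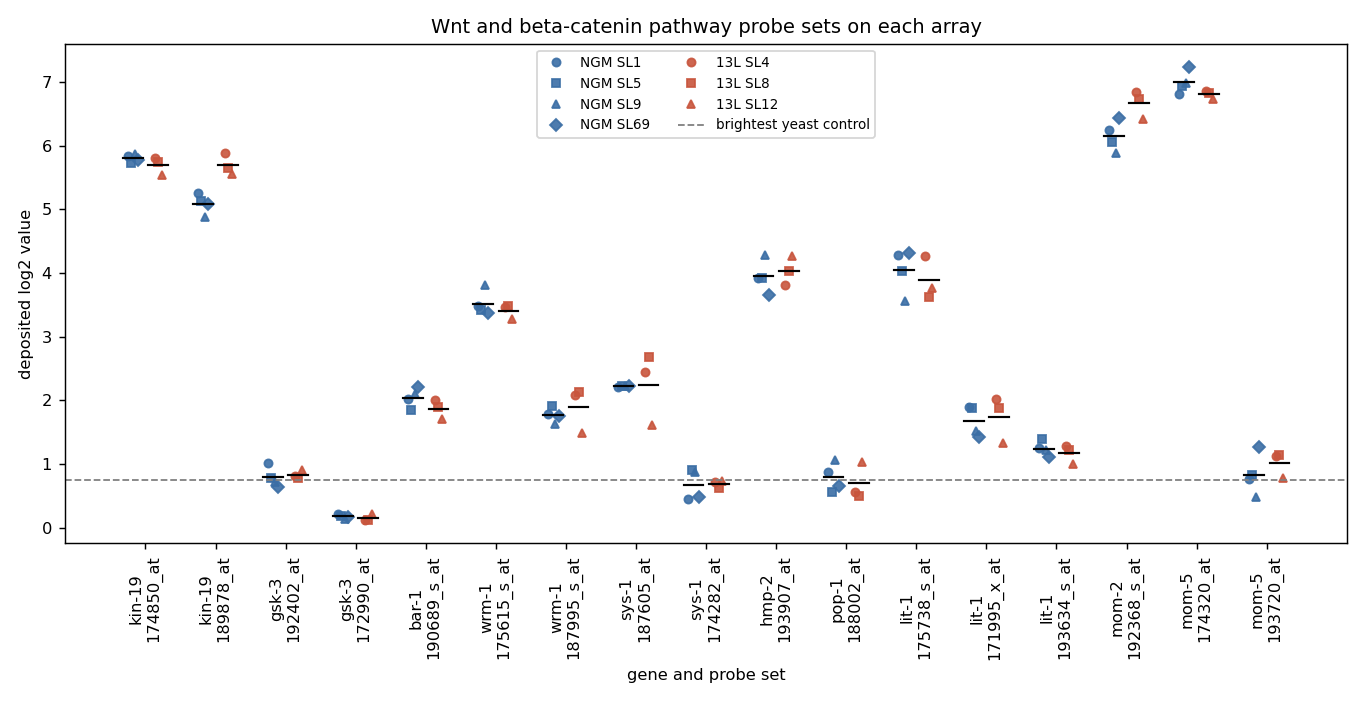
Deposited log2 level (vertical axis) of the 17 probe sets (horizontal axis) on the 4 NGM arrays (blue) and the 3 arrays of 13L (red), 1 marker per array, with a black bar at each group mean and a dashed line at the mean of the brightest yeast control, 0.74. The red markers lie above all blue markers on 189878_at of kin-19 alone, and levels of different probe sets are not comparable.

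The Wnt ligand gene mom-2 had the largest difference among the 10 genes by brightest probe set. MOM-2 is known as the signal by which 1 cell of the early embryo instructs its neighbour to form endoderm, and its RNA is supplied by the mother. Its only probe set, 192368_s_at, carries a suffix that marks probes shared between transcripts. The NGM arrays had log2 levels of 6.24 (SL1), 6.06 (SL5), 5.88 (SL9) and 6.43 (SL69), and the arrays of 13L had 6.85 (SL4), 6.73 (SL8) and 6.42 (SL12). SL4 and SL8 lay above every NGM array, and SL12 lay just under SL69 and above the other 3. The mean was 6.15 ± 0.24 (SD, n = 4) in NGM and 6.67 ± 0.23 (SD, n = 3) in 13L. The log2 difference was 0.51, with an SE of 0.15 and a 95% interval of 0.17 to 0.86. Its unadjusted p was 0.00865 and its adjusted p 0.944 in limma, and the two-sided exact permutation p was 0.114, where the smallest that 7 arrays allow is 0.0571. It ranked 165 by p and 96 by the size of a positive difference among the 22548 probe sets. SL69 was the only NGM array above SL12, so without it the groups could not overlap, and that adds no evidence of a difference.

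Oocyte markers were set beside mom-2. Of 12 oocyte genes, all measured and all above the yeast controls, 11 were on the positive side (median difference 0.16), as were 8616 of all 17118 genes. Of the 12, 1 was higher at an unadjusted p under 0.05, where 1.99% of all genes lay. The median level of that list was 7.96 (SL8) to 8.17 (SL4) on the arrays of 13L and 7.73 at the lowest on the NGM arrays, of which SL1 and SL9 lay above SL8. Of 11 early embryo genes, 9 were measured and 5 were above the yeast controls (med-1, tbx-37, sdz-1 and sdz-23 were not). Of the 9 measured, 4 had a positive and 5 a negative difference (median -0.03). Their list median was 0.70 to 1.09 in NGM and 0.62 to 0.93 in 13L. The part of either cell type in the levels of mom-2 and of kin-19 was not tested.

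The Frizzled receptor gene mom-5, whose product receives the MOM-2 signal in the embryo, had differences of opposite sign on its 2 probe sets, neither at an unadjusted p under 0.05. Its brighter probe set, 174320_at, had log2 levels of 6.81 (SL1), 6.94 (SL5), 6.99 (SL9) and 7.24 (SL69) in NGM and 6.85 (SL4), 6.83 (SL8) and 6.74 (SL12) in 13L. SL1 of the NGM group lay among the arrays of 13L, and the other NGM arrays lay above them. The difference was -0.19, with a 95% interval of -0.45 to 0.07 (unadjusted p = 0.129 and adjusted p = 0.944 from limma). The dimmer one, 193720_at, pointed the other way. It was near the yeast controls, at 0.76, 0.82, 0.48 and 1.27 in NGM and 1.12, 1.15 and 0.78 in 13L in the same array order, and differed by 0.19 with an interval of -0.23 to 0.60.

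In the destruction complex the 2 probe sets of kin-19 gave different answers. KIN-19 is the worm's casein kinase 1α, and it is also known as one of the proteins that clump in ageing worms. On 189878_at the NGM arrays had log2 levels of 5.25 (SL1), 5.13 (SL5), 4.87 (SL9) and 5.09 (SL69), and the arrays of 13L had 5.88 (SL4), 5.65 (SL8) and 5.55 (SL12). Every array of 13L lay above every NGM array, and the gap between the groups, from SL1 to SL12, was wider than the gap between any neighbouring arrays of 13L. The mean was 5.09 ± 0.16 (SD, n = 4) in NGM and 5.70 ± 0.17 (SD, n = 3) in 13L. The difference was 0.61 with an SE of 0.12 and a 95% interval of 0.33 to 0.88, which is 1.52 times if the values are plain log2 (1.26 to 1.84). The unadjusted p was 0.000738 and the adjusted p 0.944 in limma, and the two-sided exact permutation p was 0.0571, the smallest it can give. By p it ranked 12 of 22548, and by positive difference 39.

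On 174850_at, the brighter probe set of kin-19, the NGM arrays had 5.84 (SL1), 5.72 (SL5), 5.88 (SL9) and 5.78 (SL69), and the arrays of 13L had 5.81 (SL4), 5.75 (SL8) and 5.54 (SL12). SL4 and SL8 lay within the NGM range, and SL12 lay below it. The difference was -0.11, with an interval of -0.33 to 0.11 that ends below the interval of the other probe set (unadjusted p = 0.306 and adjusted p = 0.953 from limma). Neither kin-19 probe set carries a suffix for shared probes.

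The disagreement itself was tested as the brightest minus each other probe set of a gene within each array, over all 3648 such pairs in 2981 genes. For kin-19 that value was 0.59 (SL1), 0.59 (SL5), 1.00 (SL9) and 0.69 (SL69) in NGM and -0.07 (SL4), 0.09 (SL8) and -0.01 (SL12) in 13L, so the groups did not overlap. The difference between the groups was -0.71, with an SE of 0.15 and a 95% interval of -1.05 to -0.38. The unadjusted p was 0.000571, rank 3 of 3648 by p, and the adjusted p was 0.434 in limma, the lowest over all pairs. No pair passed an adjusted p under 0.05 (0%), whereas 10.0% passed an unadjusted p under 0.05 and the groups did not overlap in 9.68%. The absolute difference was larger than that of kin-19 in 18 pairs. Over all pairs its median was 0.15 and its 99th percentile 0.65.

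**Figure D2:**
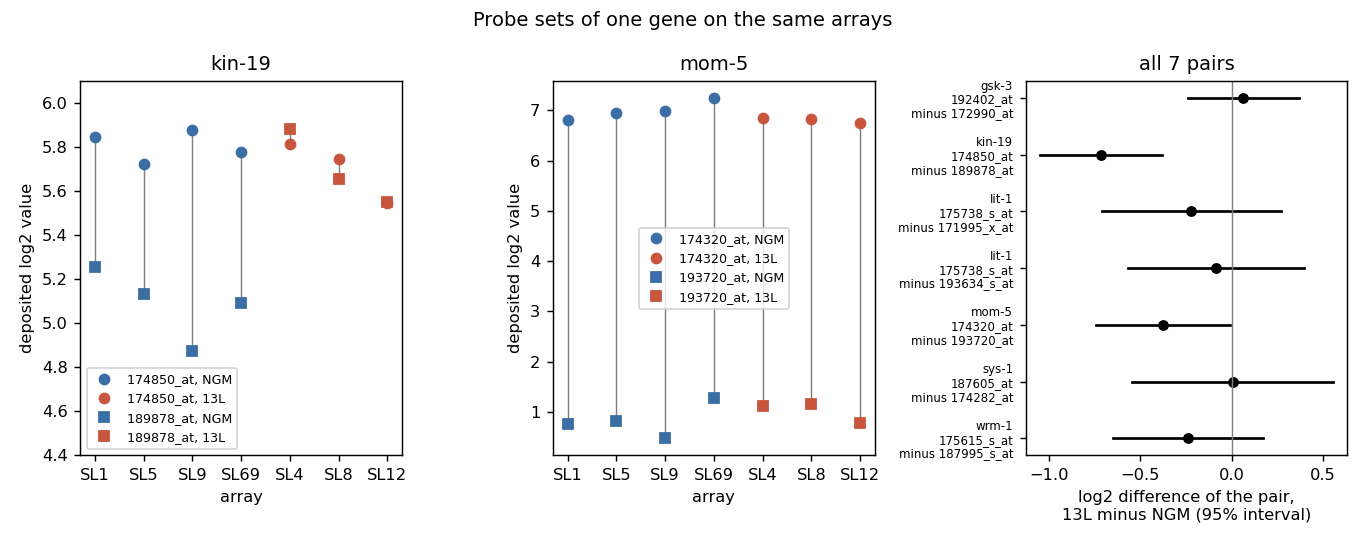
Left and centre, deposited log2 level (vertical axis) of the 2 probe sets of kin-19 and of mom-5 on each array (horizontal axis; blue NGM, red 13L; the grey line joins the 2 probe sets of an array), and right, the change of the within-array difference between groups for all 7 pairs, with 95% intervals. For kin-19 the distance is 0.59 to 1.00 in NGM and -0.07 to 0.09 in 13L; only the change of the distance between groups carries information, since levels of 2 probe sets are not comparable.

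Among the 7 pairs of the 10 genes, those of kin-19 and mom-5 passed an unadjusted p under 0.05, as did 10.0% of all pairs. For mom-5 the within-array value was 6.05, 6.11, 6.52 and 5.97 on SL1, SL5, SL9 and SL69 and 5.73, 5.68 and 5.96 on SL4, SL8 and SL12, with SL12 just below SL69 and no overlap. The mom-5 value differed by -0.37 between the groups, with an interval of -0.74 to -0.01 (unadjusted p = 0.0448 and adjusted p = 0.491 from limma). The remaining 5 pairs differed by -0.24 (wrm-1), -0.22 and -0.09 (lit-1), 0.01 (sys-1) and 0.07 (gsk-3), and the groups overlapped in each.

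The gene of the other kinase of the destruction complex, gsk-3, was near the yeast controls throughout. Its brighter probe set, 192402_at, had log2 levels of 1.01, 0.78, 0.72 and 0.64 on SL1, SL5, SL9 and SL69 and 0.80, 0.78 and 0.90 on SL4, SL8 and SL12, above 0.74 on 5 of the 7 arrays. The arrays of 13L lay inside the NGM range, and the difference was 0.04 with an interval of -0.20 to 0.28. On 172990_at no array was above 0.74 and the difference was -0.03, between levels that both lay under the controls. 

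None of the 4 β-catenin genes differed on any probe set at an unadjusted p under 0.05. bar-1, whose product acts with POP-1 in vulval cells and migrating neuroblasts, had 2.02, 1.84, 2.10 and 2.21 in NGM and 2.01, 1.89 and 1.71 in 13L on 190689_s_at, in the array order above, with SL12 the lowest of the 7. Its difference was -0.18 (interval -0.44 to 0.09). hmp-2, the β-catenin of adherens junctions, had 3.93, 3.92, 4.29 and 3.65 in NGM and 3.81, 4.03 and 4.27 in 13L on 193907_at. The 13L range lay inside the NGM range, and the difference was 0.09 (interval -0.28 to 0.45).

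The β-catenins of asymmetric division each had a probe set that spread widely among the arrays of 13L. wrm-1, which acts with the kinase LIT-1 to send POP-1 out of the nucleus, had 3.48, 3.42, 3.81 and 3.37 in NGM and 3.47, 3.49 and 3.28 in 13L on 175615_s_at (difference -0.11, interval -0.39 to 0.17). On its other probe set, 187995_s_at, it had 1.79, 1.92, 1.63 and 1.75 in NGM and 2.09 (SL4), 2.13 (SL8) and 1.48 (SL12) in 13L. There SL4 and SL8 lay above every NGM array and SL12 below every one, and the difference was 0.13 (interval -0.23 to 0.49). sys-1, the coactivator of POP-1, showed the same split on 187605_at. The NGM arrays lay together at 2.20, 2.23, 2.23 and 2.23, while SL4 had 2.45, SL8 2.68 and SL12 1.61. The SD was 0.01 in NGM and 0.56 in 13L, and the difference was 0.02 with an interval of -0.47 to 0.52. Without SL12 the difference on 187605_at was 0.34 (unadjusted p = 0.0107) and that of wrm-1 on 187995_s_at 0.34 (unadjusted p = 0.0154). Neither was below an adjusted p of 0.05 in limma. At an unadjusted p under 0.05, 625 of 22548 probe sets were higher in that fit. SL12 lay opposite to SL4 and SL8 on both probe sets, so leaving it out favours such values. Without SL8 instead, the differences were -0.19 (sys-1) and 0.02 (wrm-1). Over the 17 probe sets SL12 was the lowest array of its group on 11, SL8 on 5 and SL4 on 1. SL4 was the highest on 8, SL12 on 5 and SL8 on 4. Such counts were not made over all probe sets, and some of the 17 belong to the same gene. The second probe set of sys-1, 174282_at, had a mean under the yeast controls and differed by 0.02.

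The TCF gene pop-1 had log2 levels of 0.87, 0.56, 1.06 and 0.66 in NGM and 0.56, 0.50 and 1.02 in 13L on 188002_at. Only 3 of the 7 arrays were above 0.74, and the groups overlapped (difference -0.10, interval -0.46 to 0.27). lit-1, the Nemo-like kinase that phosphorylates POP-1, had 4.29 (SL1), 4.03 (SL5), 3.56 (SL9) and 4.31 (SL69) in NGM and 4.27 (SL4), 3.63 (SL8) and 3.77 (SL12) in 13L on 175738_s_at, with a difference of -0.16 (interval -0.64 to 0.32). The high arrays were SL1, SL69 and SL4, from both groups. Those were also the 3 arrays with the lowest median of the sperm markers. That median was 2.28 on SL1, 5.28 on SL69 and 4.11 on SL4, and 6.63 to 7.37 on the other 4. Of 40 listed sperm genes 30 were measured, 27 of them with a mean above the yeast controls (spe-11, spe-38 and fer-1 were not). The difference was above 0 for 27 of the 30 (median 0.55), as it was for 8616 of all 17118 genes. None was higher at an unadjusted p under 0.05, where 1.99% of all genes lay. Within NGM alone the list median ran from 2.28 (SL1) to 6.94 (SL5). The part of the sperm RNA in the level of lit-1 was not tested. The other probe sets of lit-1, 171995_x_at and 193634_s_at, differed by 0.06 and -0.07, and the groups overlapped on each. They did not share the array order of 175738_s_at. SL69 had 1.43 on 171995_x_at and 1.10 on 193634_s_at, in both cases above SL12 alone. The highest arrays were SL4 (2.01) and SL1 (1.89) on 171995_x_at, and SL5 (1.39) on 193634_s_at.

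**Figure D3:**
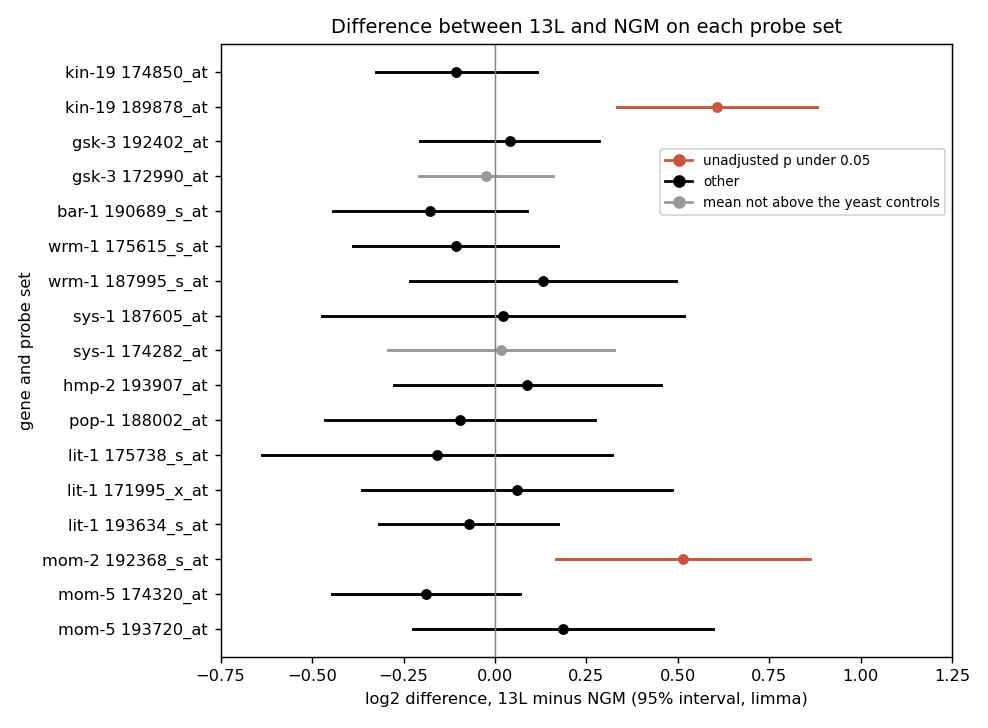
Difference of the log2 level, 13L minus NGM (horizontal axis, 95% interval from limma), of each of the 17 probe sets (vertical axis), red for an unadjusted p under 0.05 and grey for a mean not above the yeast controls. The intervals of 189878_at of kin-19 (0.33 to 0.88) and of mom-2 (0.17 to 0.86) lie above 0, and the other 15 cross it.

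The numbers after the SL of the array names fall in runs, in which SL4 follows SL1, SL8 follows SL5, SL12 follows SL9 and SL69 stands on its own, and nothing states that a run is a batch. Within runs, kin-19 on 189878_at was higher in 13L by 0.63, 0.52 and 0.68, and mom-2 by 0.61, 0.68 and 0.53. On 193720_at, near the yeast controls, mom-5 was higher by 0.36, 0.33 and 0.31 within runs. On its brighter 174320_at it differed by 0.04, -0.11 and -0.25. With the runs as blocks its difference on 193720_at was 0.33 (unadjusted p = 0.00952 and adjusted p = 0.539 from limma). SL69, the highest array on 193720_at (1.27) and alone in its block, then added nothing. At an unadjusted p under 0.05, 861 of 22548 probe sets were higher in that fit. In that fit the adjusted p was 0.232 for both kin-19 on 189878_at and mom-2.

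The rest of the pathway was described from a list of 34 further genes, sorted by role and counted by brightest probe set. All 34 were measured and 29 had a mean above the yeast controls. Of the 34 differences, 8 were positive and 26 negative, with a median of -0.10 beside 0.00 over all genes, and none passed an adjusted p under 0.05. The genes cfz-2 and tap-1 were lower at an unadjusted p under 0.05, where 2.73% of all genes lay, and none was higher. The groups did not overlap for 1 gene, tap-1, against 5.80% of all genes in either direction.

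cfz-2, a Frizzled receptor gene, had log2 levels of 2.78, 2.51, 2.33 and 2.89 in NGM and 2.05, 2.34 and 2.04 in 13L on 173988_at, where SL8 lay just above SL9 and the other 2 arrays of 13L lay below every NGM array. It differed by -0.48 with an interval of -0.82 to -0.14 (unadjusted p = 0.0106 and adjusted p = 0.944 from limma), and by -0.50 on its other probe set (interval -1.03 to 0.02). tap-1, a TAB1-like partner of the kinase MOM-4 upstream of LIT-1, had 3.68, 3.64, 3.72 and 3.60 in NGM and 3.40, 3.56 and 3.17 in 13L, and differed by -0.28 with an interval of -0.53 to -0.04 (unadjusted p = 0.0274). In mom-4 itself, the TAK1-like kinase gene, the difference was -0.18.

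By brightest probe set all 6 receptor genes had a difference below 0, from -0.48 in cfz-2 to -0.00 in lin-18, the Ryk receptor gene, with a median of -0.14. The sign did not hold on every probe set: 3 of the 5 receptor genes with several had one above 0. They were mom-5 (0.19 on 193720_at), mig-1 (0.15 on 186960_s_at, interval -0.03 to 0.34) and cam-1 (0.05 on 193362_at). On that probe set of mig-1 every array of 13L lay above NGM, as on 3.31% of all probe sets. By brightest probe set mom-5 at -0.19 came after cfz-2 and the Ror receptor gene cam-1 (-0.35). Among the 5 Wnt ligand genes mom-2 stood at one end with 0.51 and cwn-1 at the other with -0.34 (interval -0.78 to 0.10), and egl-20, lin-44 and cwn-2 were not above the yeast controls. In the destruction complex the differences ran from -0.23 in pry-1, an Axin gene, to 0.18 in apr-1, the APC-related gene. The ubiquitin ligase gene lin-23 had -0.06 on 174984_at and 0.54 on 190894_at (interval -0.01 to 1.09).

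Probe sets of 1 gene with opposite signs were common. Over all genes they were found in 1611 of the 2981 with several probe sets, among the 10 genes in 5 of 6 (kin-19, gsk-3, wrm-1, lit-1 and mom-5), and among the 34 further genes in 8 of 16 (cam-1, dsh-1, hmp-1, hmr-1, lin-23, mig-1, mig-5 and prkl-1). The Dishevelled gene dsh-1 had -0.25 on its brightest probe set, 174672_at, and 0.22 on 191357_s_at (interval -0.01 to 0.45). On 191357_s_at every array of 13L lay above NGM, as on 3.31% of all probe sets. The polarity gene prkl-1 had -0.35 on 181271_s_at and 0.16 on 180400_at, and the cadherin gene hmr-1 ran from -0.13 to 0.45 over its probe sets.

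By brightest probe set, Dishevelled genes ran from -0.25 in dsh-1 to 0.01 in mig-5, and genes of Wnt secretion from -0.11 in mom-1, the Porcupine gene, to 0.05 in vps-35, of the retromer. On its other probe set, 193065_at, vps-35 differed by 0.28 (interval -0.02 to 0.58). There every array of 13L lay above NGM, as on 3.31% of all probe sets. The junction genes listed beside hmp-2 ran from -0.19 in the p120-catenin gene jac-1 to -0.05 in the cadherin gene hmr-1 on their brightest probe sets. Planar polarity genes ran from -0.35 in prkl-1 to -0.09 in vang-1. Of 7 genes known as targets of the pathway, which POP-1 and its partners control, 3 had a positive difference, and they ran from -0.24 in ceh-22, not above the yeast controls, to 0.11 in the Hox gene egl-5, likewise not above them. The targets of the MOM-2 signal in the embryo, end-1 and end-3, differed by 0.10 and 0.02. Neuronal markers were mostly lower in 13L as well: 16 of 20 had a negative difference (median -0.20), as did 8502 of all 17118 genes. Of the 20, 3 were lower at an unadjusted p under 0.05, where 2.73% of all genes lay. Their list median was 1.88 to 2.19 in NGM and 1.84 to 1.86 in 13L, with SL12 (1.858) just below SL5 (1.879). The neuronal genes unc-31, rgef-1 and eat-4 were not above the yeast controls. Of 10 hypodermal markers 4 had a positive and 6 a negative difference, with a median of -0.10. Of these 10, 3 were lower at that level, beside the same 2.73% of all genes. Their list median was 5.53 to 5.91 in NGM and 5.18 to 5.54 in 13L. Of 10 intestinal markers 3 had a positive and 7 a negative difference (median -0.03). Of 10 body muscle markers 5 had a positive and 5 a negative one (median 0.00). No gene of these last lists had an unadjusted p under 0.05. The part of any of these tissues in the levels of the receptor and polarity genes was not tested.

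**Figure D4:**
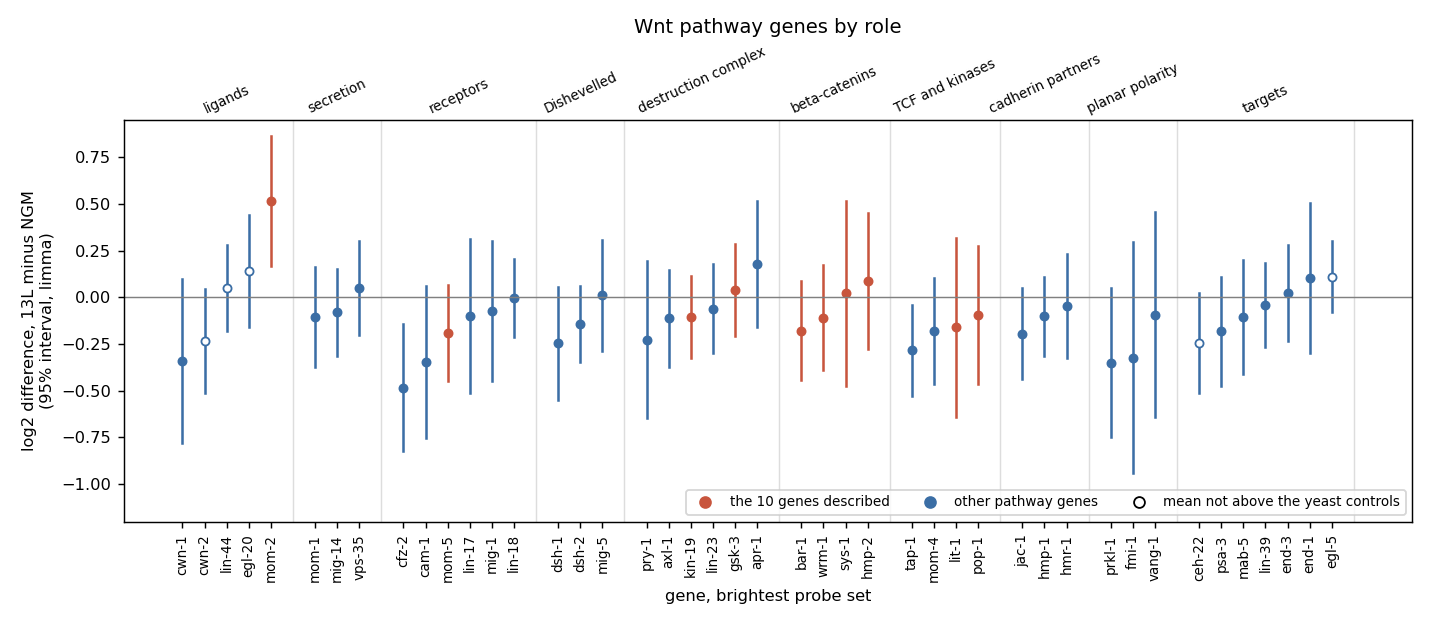
Difference of the log2 level, 13L minus NGM (vertical axis, 95% interval from limma), of each pathway gene by its brightest probe set (horizontal axis), grouped by role, with the 10 genes described in red, further genes in blue and open markers for a mean not above the yeast controls. The interval of mom-2 lies above 0 (0.17 to 0.86), those of cfz-2 and tap-1 lie below 0, and all 6 receptor genes are below 0 on the probe set drawn, although mom-5, mig-1 and cam-1 have another above 0.

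The nearest relatives of the kinases were set beside them. The other casein kinase 1 genes, kin-20 and csnk-1, differed by 0.10 and 0.09 on their brightest probe sets and by -0.04 and -0.06 on their others, none with an interval above 0. Of the gsk-3 relatives, gskl-2 differed by 0.18 (interval -0.05 to 0.41) and gskl-1, not above the yeast controls, by -0.07. The levels of gskl-2 were near the yeast controls, above 0.74 on 6 of the 7 arrays. Its groups did not overlap, as on 3.31% of all probe sets in that direction, with SL12 (0.781) just above SL5 (0.779).

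The genes whose levels followed kin-19 on 189878_at most closely over the 7 arrays were acs-13 (Pearson's r 0.980), hrpk-1 (0.979), kca-1 (0.976), met-2 (0.976) and T24D1.2 (0.974), out of 12497 probe sets above the yeast controls that have 1 gene. An r above 0.9 was reached by 53 of them. For mom-2 they were F19C7.8 (0.988), C56A3.8 (0.982), cnep-1 (0.981), spn-4 (0.980) and henn-1 (0.979), with 71 of 12498 above 0.9. The arrays share their groups, diet and normalisation, so an r of this size over 7 arrays is a description of likeness only.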

How the data were processed

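The deposited values are log2 expression levels of 22625 probe sets on 7 arrays. Per the labels and methods the authors made them with RMA, with quantile normalization, and used limma (versions: not given in the sources used here). Which offset was applied to the log2 scale is not stated. No column of per-array values was left unused. Platform annotation named 1 gene for 20766 probe sets, several for 887 and none for 895, with symbols updated through 17085 of 17138 Entrez IDs.

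Here 77 Affymetrix control probe sets were left out and limma 3.58.1 in R 4.3.3 (lmFit and eBayes, two-sided, Benjamini-Hochberg adjustment, threshold 0.05) compared 13L with NGM over 22548 probe sets on all 7 arrays, without covariates, and likewise over within-array differences of probe sets of 1 gene. Intervals are 95% intervals of that fit. The exact permutation p doubles the smaller tail over 35 arrangements of the arrays. With arrays, their number limits the precision: the SE of the 17 probe sets ran from 0.08 to 0.22, with a median of 0.14. The fits were tested on simulated data.

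All 10 genes are named with every probe set. Other pathway genes are named if their unadjusted p was under 0.05, their groups did not overlap, or they had the largest or smallest difference of their role; lin-23, egl-20, lin-44, cwn-2, end-1, end-3, cam-1, mig-1, mom-4, hmp-1, kin-20, csnk-1 and gskl-1 were added after their values were seen. The genes and lists were chosen with earlier results of these data known. Alternatives were each array left out, SL1 and SL69 left out together, runs of array numbers as blocks, limma's trend and robust options, weights for arrays, cyclic loess, centring on the array median, 2 filters on dim probe sets, no shared probe sets and an average over the probe sets of each gene.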

Additional observations from a re-analysis of the deposited data

Results flagged for a closer look

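The NGM arrays of sys-1 on 187605_at had log2 levels of 2.20 (SL1), 2.23 (SL5), 2.23 (SL9) and 2.23 (SL69). SL1 lay apart from the other 3: its gap to the nearest of them was 0.844 of the range of the group, above Dixon's critical value for a group of 4. The SD of the group was 0.01, so the distance is small on the log2 scale. The NGM groups of all 17 probe sets were examined, and chance marks about 1 group in 20.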

How the results depend on the processing

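No probe set and no pair passed an adjusted p under 0.05 under any alternative in limma, and the lowest adjusted p over all probe sets was then 0.180, with runs of array numbers as blocks, where 861 probe sets were higher and 916 lower at an unadjusted p under 0.05 instead of 572 and 580. Those counts were 300 and 374 above the yeast controls and 265 and 327 among the brighter 11274 probe sets, with fewer tested in both. The difference of kin-19 on 189878_at ranged from 0.51 to 0.69 over 16 alternatives and that of mom-2 from 0.42 to 0.70 over 15, each with an unadjusted p under 0.05, and their adjusted p from 0.232 to 0.999. The kin-19 pair ranged from -0.79 to -0.62 (adjusted p 0.160 to 0.737), and the mom-5 pair from -0.53 to -0.26, with an unadjusted p under 0.05 in 11 of 15. The count of the 17 probe sets higher in 13L at an unadjusted p under 0.05, 2, was 2 to 4 with each array left out (4 without SL12, which added wrm-1 and sys-1) and 1 without shared probe sets, which drops mom-2. The median over the 10 genes, -0.10, was -0.14 to -0.01 with each array left out (-0.01, or -0.0085, without SL9) and 0.0092 with an average over the probe sets of each gene; the cause was not tested. sys-1 on 174282_at was -0.20 without SL1 and SL69. The sign changed under 1 alternative or more on 8 of the 17 probe sets, those of gsk-3 (192402_at), sys-1, hmp-2, pop-1 and lit-1. The labels give the groups no shared replicate numbers, so the runs are the only pairing that was tried. The number of arrays limits the precision.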
